A study of Sus scrofa with 8 samples.

Results

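Imprinted genes are expressed mainly or only from the copy inherited from one parent, and their regulation has been worked out mostly in mouse and human. Such genes often lie in clusters around a CpG-rich control region that is methylated on one parental chromosome, and at several of these regions the unmethylated chromosome is bound by CTCF, a zinc-finger protein that blocks or anchors contacts between regulatory elements. Of the histone marks profiled, H3K4me3 lies over promoters and H3K27ac over promoters and enhancers that are in use. The 10 genes described here, of 28077 genes annotated on chromosomes 1 to 18 and X, were chosen by name: the growth factor gene IGF2 and its receptor IGF2R, the potassium channel gene KCNQ1, the cell cycle inhibitor CDKN1C, the Notch ligand relative DLK1, MEST, the retrotransposon-derived PEG10 and its neighbour SGCE, which encodes a sarcoglycan, the zinc-finger factor PLAGL1, and NNAT, which encodes a small membrane proteolipid.

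The data are peak lists of ChIP-seq, in which DNA bound to a modified histone or a protein is pulled down with an antibody and sequenced, from untreated pig embryonic fibroblasts (PEFs) of fetuses of Large White pigs at day 35. There were 2 replicates each for H3K4me3, H3K27ac and CTCF, and the labels do not say whether replicates came from separate cultures or animals. The lists held between 37932 and 81164 peaks. All genes and regions below are on the Sscrofa11.1 assembly with its RefSeq annotation. Each peak carries a fold enrichment over the control, which the authors computed, and pairs of values below are those of replicates 1 and 2 in that order. No read counts come with the peaks, so the depth behind a peak is unknown. Peaks do not separate the parental chromosomes, and a mark on some cells or on 1 chromosome only and a weaker mark everywhere cannot be told apart. The cells carried fibroblast marks: all 13 fibroblast genes examined, COL1A1, VIM and PDGFRA among them, had both histone marks at the transcription start site (TSS) in each replicate. Among 5 blood genes, 0 had H3K4me3 and 1 had H3K27ac, and of 4 endothelial genes 1 and 0. The epithelial list had 3 and 1 of 4, the muscle list 2 and 2 of 3, the neural list 3 and 0 of 4, and the trophoblast and pluripotency list 1 and 0 of 3. The design holds no contrast between conditions, so counts and levels are described beside the same values over all genes, with no test.

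A few stretches of the reference carry most of what follows. The first pair are the CpG-rich centres of H3K4me3 regions inside introns of KCNQ1 and IGF2R, far from any annotated start, the DLK1 promoter is CpG-rich but unmarked, and the last stretch lies between the starts of SGCE and PEG10. They are given 5′ to 3′ on the forward strand, with CpG dinucleotides in capitals in the first 3 and the CTCF motif in capitals in the last.
KCNQ1 intron 11, chr2:1859212-1859511, 40 CpG: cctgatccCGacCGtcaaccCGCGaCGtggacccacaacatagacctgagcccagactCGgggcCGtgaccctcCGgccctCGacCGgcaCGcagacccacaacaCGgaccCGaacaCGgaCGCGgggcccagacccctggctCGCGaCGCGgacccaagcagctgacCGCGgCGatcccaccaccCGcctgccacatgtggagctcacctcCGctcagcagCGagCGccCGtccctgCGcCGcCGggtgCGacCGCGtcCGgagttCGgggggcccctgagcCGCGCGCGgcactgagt
IGF2R intron 2, chr1:7446772-7447071, 38 CpG: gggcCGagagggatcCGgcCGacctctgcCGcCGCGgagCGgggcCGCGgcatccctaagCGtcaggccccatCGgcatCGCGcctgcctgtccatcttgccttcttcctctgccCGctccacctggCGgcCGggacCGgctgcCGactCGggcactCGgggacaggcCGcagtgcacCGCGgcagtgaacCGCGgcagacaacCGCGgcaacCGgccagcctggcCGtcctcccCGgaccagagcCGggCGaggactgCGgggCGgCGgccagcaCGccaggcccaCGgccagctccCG
DLK1 promoter, chr7:121565594-121565893, 52 CpG: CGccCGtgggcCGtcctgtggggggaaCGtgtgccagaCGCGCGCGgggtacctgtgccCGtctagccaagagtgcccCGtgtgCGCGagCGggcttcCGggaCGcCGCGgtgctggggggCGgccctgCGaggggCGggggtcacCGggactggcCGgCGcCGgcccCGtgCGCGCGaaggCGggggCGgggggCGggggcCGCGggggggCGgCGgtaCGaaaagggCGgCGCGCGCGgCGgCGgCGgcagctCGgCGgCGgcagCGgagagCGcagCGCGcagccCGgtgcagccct
SGCE to PEG10, chr9:74473904-74474121: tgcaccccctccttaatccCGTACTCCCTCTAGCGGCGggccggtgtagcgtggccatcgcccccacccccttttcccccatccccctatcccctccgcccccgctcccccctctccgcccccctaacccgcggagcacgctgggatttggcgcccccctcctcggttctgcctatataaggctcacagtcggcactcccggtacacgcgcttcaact

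The CTCF motif used throughout was learned from CTCF peaks on chromosomes without these genes, and its consensus is NNCCACNAGGGGGCGCNNN, where N stands for positions at which no base reached 50%. The following motifs were the best match, on either strand, within 100 bp of the summit of CTCF regions that the results turn on. Each is written on its own strand, with the 19 bases of the match in capitals and 6 bases on each side.
IGF2 intron 1, 5.7 kb inside, chr2:1490710-1490740 (-): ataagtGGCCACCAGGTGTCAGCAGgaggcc
IGF2 intron 1, 1.8 kb inside, chr2:1494626-1494656 (-): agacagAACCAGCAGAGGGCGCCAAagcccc
Upstream of IGF2, chr2:1501668-1501698 (+): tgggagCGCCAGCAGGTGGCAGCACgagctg
Upstream of KCNQ1, chr2:1665753-1665783 (+): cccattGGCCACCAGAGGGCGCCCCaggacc
KCNQ1 intron 2, chr2:1728879-1728909 (-): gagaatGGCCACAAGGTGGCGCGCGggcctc
CDKN1C start, chr2:2022273-2022303 (-): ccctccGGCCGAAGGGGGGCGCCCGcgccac
IGF2R intron 2, chr1:7446597-7446627 (+): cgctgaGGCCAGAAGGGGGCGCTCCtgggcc
PLAGL1 start, chr1:21300243-21300273 (+): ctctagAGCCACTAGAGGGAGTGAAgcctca
PLAGL1 end, chr1:21371154-21371184 (-): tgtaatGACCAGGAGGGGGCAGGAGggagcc
MEST intron 1, chr18:18346829-18346859 (-): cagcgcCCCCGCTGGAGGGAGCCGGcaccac

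At the gene TSS, the outermost 5′ end that the annotation gives the gene, 6 of the 10 imprinted genes had an H3K4me3 peak within 1 kb in both replicates: KCNQ1, CDKN1C, PEG10, SGCE, IGF2R and NNAT. Over all annotated genes the share was 55.4%, and over protein-coding genes 68.9%. H3K27ac was there in 4 of 10, namely CDKN1C, PEG10, SGCE and IGF2R, against 50.1% of all and 60.7% of protein-coding genes. Within 5 kb it was there in 7 of 10, against 58.2%. Where the summit itself had to lie within 1 kb, H3K4me3 remained at KCNQ1 and IGF2R, 2 of 10, against 41.5% of all genes. CTCF was there in 4 of 10, namely CDKN1C, PEG10, SGCE and PLAGL1, against 15.2% of all and 17.9% of protein-coding genes, and 3 genes had all 3 marks, against 11.5% of all genes. PEG10 and SGCE are divergent genes on one promoter and their peaks are the same peaks, so these counts hold 9 separate starts. In addition, 4 genes had further annotated starts more than 1 kb from the gene TSS, and in 4 of 4, IGF2, MEST, PLAGL1 and NNAT, such a start had H3K4me3 in both replicates, against 53.2% of the 4814 genes with such starts. IGF2, MEST and PLAGL1 had no H3K4me3 at the gene TSS, a combination found in 13.4% of those 4814 genes. H3K27ac was at such a start in 3 of them, all but IGF2, against 51.6%, and CTCF in 1, MEST, against 16.2%. Within 5 kb, CTCF was at such a start in 4 of 4, against 35.7%. A gene counted here when any group of its other starts had the mark. IGF2, MEST, PLAGL1 and NNAT had 4, 4, 6 and 1 such groups, and the shares were not matched for this number. At NNAT the same H3K4me3 peak was counted at the gene TSS and at the other start. Over both kinds of start, 9 of the 10 genes carried H3K4me3, and DLK1 had none in either replicate, as 40.7% of all genes and 26.6% of protein-coding genes.

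**Figure D1:**
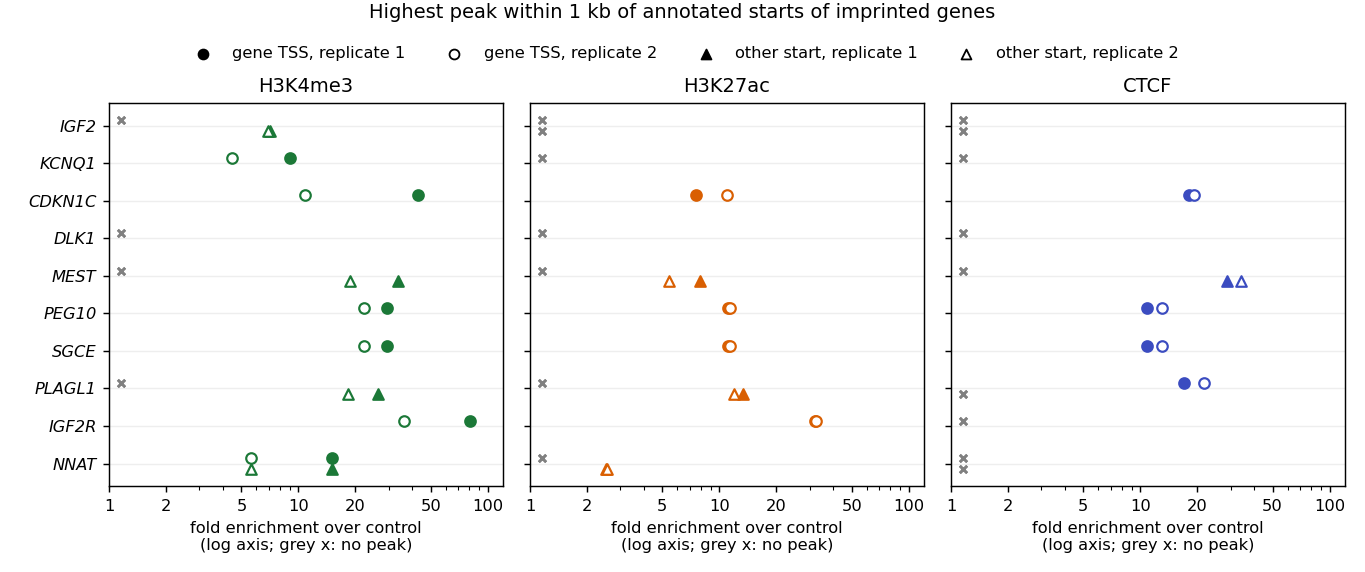
Fold enrichment over the control (log axis) of the highest peak within 1 kb of the gene TSS (circles) and, for the 4 genes that have them, of other annotated starts (triangles), in replicate 1 (filled) and replicate 2 (open), with a grey cross where there was no peak. IGF2R held the highest H3K4me3 and H3K27ac values, IGF2, MEST and PLAGL1 had H3K4me3 only at other starts, and DLK1 had no peak of any mark.

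IGF2R, the receptor that carries IGF2 and lysosomal enzymes to lysosomes, had the strongest marked promoter of the 10. Its H3K4me3 peak had fold enrichments of 80.6 and 36.0, higher than 96.8% and 88.6% of the TSS peaks of all genes in the respective replicate. Its H3K27ac peak had 32.2 and 32.4, higher than 93.1% and 86.8%. The replicates lay close together for H3K27ac, whereas H3K4me3 was higher in replicate 1, as it was over all genes, whose TSS peaks had medians of 50.9 and 24.8. No CTCF peak lay within 1 kb of this start in either replicate.

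The shared start of SGCE and PEG10, with 216 bp between the TSSs, had all 3 marks. The H3K4me3 peak had fold enrichments of 29.3 and 22.2, below most TSS peaks (percentiles 19.7 and 40.1), but widths of 5306 and 7348 bp, wider than 90.8% and 95.6% of them. H3K27ac had 11.04 and 11.4 there and CTCF 10.8 and 13.04, and the motif of this CTCF region lay between the TSSs, on the reverse strand in the sequence shown above. A further CTCF region lay 1.46 kb inside PEG10, at fold enrichments of 6.23 and 12.8, with no motif match. Within 100 kb of PEG10 no other H3K4me3 region was found in both replicates, while H3K27ac regions lay 2.24 kb inside the gene and at 53.0, 55.7 and 81.5 kb from its TSS, and a CTCF region lay at -76.6 kb.

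CDKN1C, which encodes an inhibitor of cyclin-dependent kinases and restrains growth, had H3K4me3 across its short body, with fold enrichments of 42.9 and 10.9. The replicates were far apart at this gene. H3K27ac had 7.53 and 11.0 just upstream of the TSS and a further region inside the gene had 7.29 and 7.41, so that acetylation flanked the start. The CTCF peak, with 17.99 and 19.3, had its summit at -195 and -198 bp from the TSS, next to the motif shown above. The neighbourhood was densely acetylated: 26 H3K27ac peaks in each replicate lay within 100 kb of the gene, or 12.8 per 100 kb, higher than 98.5% and 96.7% of protein-coding genes.

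KCNQ1 and NNAT carried weak H3K4me3 at the gene TSS and no H3K27ac there. At KCNQ1 the fold enrichments were 9.01 and 4.44 (percentiles 6.04 and 3.21) and the peaks were 716 and 683 bp wide. Its promoter nevertheless held 37 CpG in 300 bases, at percentile 91.0 of promoters. At NNAT they were 15.1 and 5.60 (percentiles 9.74 and 5.05), and the peaks began 530 and 627 bp inside the gene, over the other starts 1102 and 1190 bp from the gene TSS. A narrow H3K27ac peak at those starts had 2.51 and 2.56, lower than nearly all TSS peaks (percentiles 0.350 and 0.411). NNAT lies within the gene BLCAP, whose own start 7.62 kb away had H3K4me3 of 74.0 and 32.7 and H3K27ac of 32.4 and 38.7. The adjoining starts of NNAT and BLCAP thus differed in both marks and in both replicates in the same direction.

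MEST, PLAGL1 and IGF2 had their H3K4me3 away from the gene TSS, at a shorter annotated transcript. In MEST, which encodes a protein of the hydrolase fold, the gene TSS lies in a CpG-poor stretch (2 CpG in 300 bases) without any peak, whereas a block of 7806 bp at 3 groups of starts 12125 to 16222 bp downstream had H3K4me3 of 33.8 and 18.7. Its widths of 5302 and 7806 bp were above 90.8% and 96.6% of TSS peaks. H3K27ac there had 7.87 and 5.45, and CTCF had 28.6 and 33.9 at the CpG-rich group of starts, next to the motif shown above. In all, 4 CTCF regions lay in the body of MEST and 0 in the 100 kb on each side of it, in either replicate. Over the gene and both sides, the density of CTCF peaks was higher than at only 27.9% and 23.7% of protein-coding genes.

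In PLAGL1, a transcription factor that restrains growth, the gene TSS (1 CpG in 300 bases) had CTCF alone, with fold enrichments of 17.1 and 21.7 and a motif on the forward strand. The next group, 9 starts at 3289 to 4172 bp, had H3K4me3 of 26.3 and 18.3 and H3K27ac of 13.4 and 12.0, with up to 34 CpG in 300 bases and no CTCF. A single start at 7406 bp was within 1 kb of the same peaks in all of these libraries but replicate 1 of H3K4me3. The 4 starts further downstream, at 20720 to 53457 bp, had no peak of any mark within 1 kb. At the 3′ end, 71.3 kb from the gene TSS, a CTCF region had 72.7 and 89.2, and its mean was higher than 99.7% of the 37874 CTCF regions found in both replicates.

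IGF2 is the fetal growth factor of the group, and it was the one gene of the 9 with H3K4me3 that had no H3K27ac peak in its body. The gene TSS had 8 CpG in 300 bases and no peak of any mark in either replicate. H3K4me3 was found within 1 kb of 2 groups of starts 17428 to 21218 bp downstream, with up to 38 CpG in 300 bases. The peak had fold enrichments of 7.10 and 6.90 (percentiles 4.68 and 6.94). It lay between these groups and covered none of their starts, with its mean summit 895 bp from the nearest. The 2 groups of starts between these and the gene TSS had none. No H3K27ac peak of either replicate lay in the gene or within 20 kb of it, as in 20.3% of all genes, and the nearest was 32537 and 62352 bp away. CTCF was more frequent, with 2 regions in intron 1, at 5.67 kb (14.7 and 15.9) and 1.78 kb (27.8 and 25.7) inside the gene, and 9 regions within 100 kb. The density of CTCF peaks within 100 kb was higher than at 83.7% and 73.8% of protein-coding genes. On the downstream side of the gene, CTCF regions lay 81.6 kb (26.2 and 34.6) and 110.8 kb (20.2 and 21.0) from its TSS.

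DLK1, a transmembrane protein that holds back the differentiation of fat cell precursors, had no peak at its starts, in spite of the CpG-richest promoter of the 10, shown above. Its 52 CpG in 300 bases were at percentile 98.5 of all promoters. Of the 401 protein-coding genes with at least as many, 99% had H3K4me3 at the TSS in both replicates, and 3 genes (0.748%), DLK1 included, had none in either. In replicate 1 a single H3K4me3 peak lay 3763 bp inside the gene, and in replicate 2 the nearest was 17623 bp away. No H3K27ac peak came closer than 36677 bp. Downstream of DLK1 lies the non-coding RNA gene MEG3, with its TSS 90.4 kb from that of DLK1. The MEG3 TSS had H3K4me3 of 9.03 and 9.12, CTCF of 17.5 and 15.5, and H3K27ac in replicate 2 alone (2.25).

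**Figure D2:**
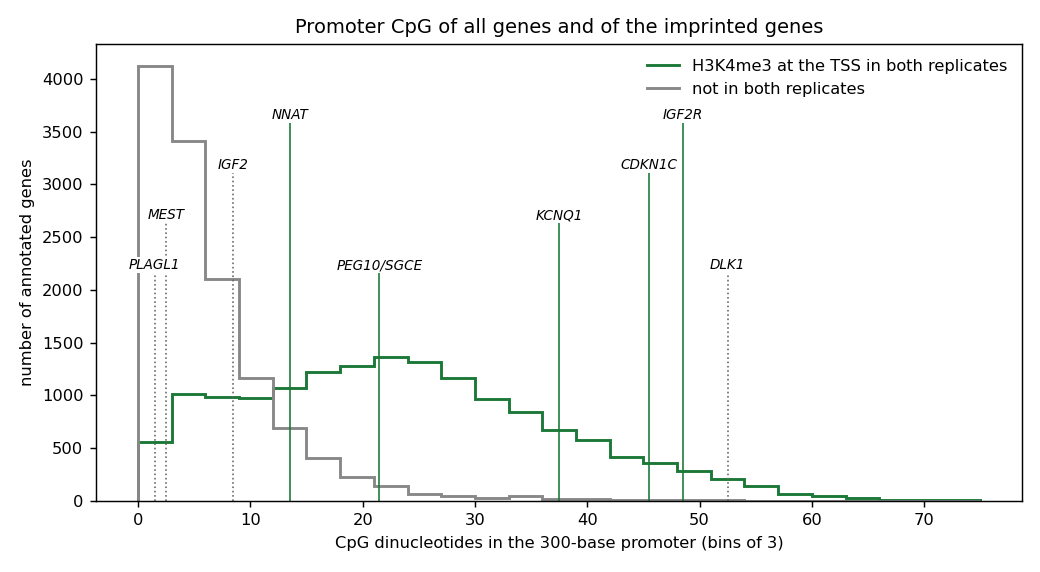
Number of annotated genes (vertical axis) by CpG dinucleotides in the 300-base promoter (horizontal axis, bins of 3), for genes with H3K4me3 at the TSS in both replicates (green) and the rest (grey), with the imprinted genes as solid green lines where marked and dotted grey lines where not. MEST, PLAGL1 and IGF2, unmarked at the gene TSS, had 2, 1 and 8 CpG, whereas DLK1 was unmarked at 52 CpG.

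Over all genes, promoters with H3K4me3 in both replicates had a median of 22 CpG in 300 bases and the others 4, and of the 10 genes, the unmarked IGF2 (8), MEST (2) and PLAGL1 (1) and the marked PEG10 and SGCE (21 each) and NNAT (13) lay below the marked median. Only DLK1 of the 10 was unmarked above the median of the marked. A CTCF motif was found in the promoter of 7 of the 10 genes, all but MEST, PLAGL1 and IGF2R, against 30.5% of all promoters and 34.8% of protein-coding ones. The promoters of PEG10 and SGCE overlap and share the motif shown above, so they are not separate cases. Of those 7, CDKN1C, PEG10 and SGCE had a CTCF peak at the gene TSS and IGF2, KCNQ1, DLK1 and NNAT had none. The PLAGL1 peak had its motif downstream of the promoter stretch. The motif threshold assumed a background share of 0.213 each for C and G. The 7 promoters with a motif had a GC content of 49 to 82%, MEST and PLAGL1 31 and 32.3%, and IGF2R 79.3%. The shares over all promoters were not matched for GC content.

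H3K4me3 was also found in the gene bodies more than 1 kb from any annotated start. There were 13 such regions in the 10 genes, 7 in KCNQ1, 5 in IGF2R and 1 in MEST, of 10748 in all genes. KCNQ1 (313788 bp) and IGF2R (102996 bp) are the longest of the 10 genes, and the counts were not adjusted for gene length. Replicate 1 alone gave 22 in the 10 genes and replicate 2 alone 15. H3K27ac overlapped 8 of the 13, against 74.3% over all genes, and CTCF overlapped 2, against 17.1%. The genome-wide median mean fold enrichment of such regions was 5.51 and their median CpG content 6 in 300 bases.

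The KCNQ1 region at chr2:1857629-1860524, in intron 11 and 184.0 kb from the TSS, had fold enrichments of 37.2 and 18.7, whereas the KCNQ1 promoter had 9.01 and 4.44. Its mean was higher than 96.1% of the regions away from starts and its width of 2896 bp than 94.3%. Its 40 CpG in 300 bases, in the sequence shown above, were at percentile 98.3 of these regions. H3K27ac overlapped it at 7.53 and 8.37, and CTCF did not. In mouse and human, an intron of KCNQ1 holds the control region of this cluster, where the antisense RNA KCNQ1OT1 starts. KCNQ1OT1 was not found by name in the annotation used, and no start is annotated within 1 kb of the region. A second intronic region, 273.1 kb from the TSS in intron 15, had 18.6 and 9.37 with 27 CpG, and H3K27ac of 9.41 and 9.56. The remaining 5 KCNQ1 regions had mean fold enrichments between 3.22 and 6.87, and 19 to 25 CpG in 300 bases. All 7 thus had CpG percentiles of 86.0 or more among the regions away from starts.

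The IGF2R region at chr1:7446216-7447436, in intron 2 and 25.6 kb from the TSS, combined H3K4me3 of 10.04 and 6.74 with CTCF of 17.2 and 23.1. It held 38 CpG in 300 bases, at percentile 97.8 of such regions. It was without H3K27ac in the shared regions, while the other 4 IGF2R regions, with 8 to 16 CpG, all overlapped H3K27ac and none overlapped CTCF. In the mouse gene, intron 2 holds a CpG island from which the antisense RNA Airn starts, and AIRN was not found by name in the annotation used. The body of IGF2R held 14 H3K27ac regions. The one at the start had 32.2 and 32.4, and the next highest by mean, 74.5 kb into the gene, had 16.7 and 11.2. Over the gene and 100 kb on each side, the density of H3K27ac peaks was higher than at 75.9% and 72.1% of protein-coding genes.

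**Figure D3:**
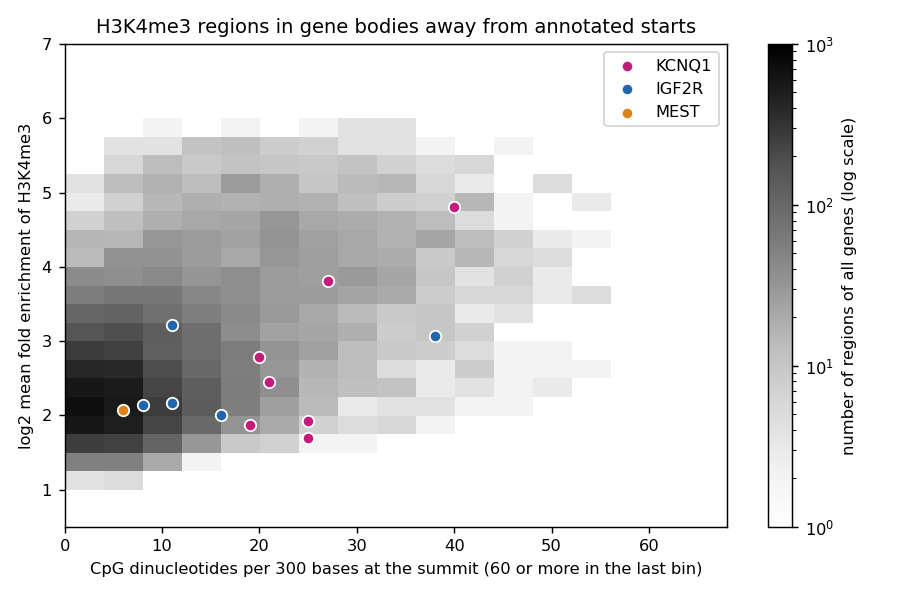
H3K4me3 regions in gene bodies more than 1 kb from every annotated start, by CpG dinucleotides in 300 bases at the summit (horizontal axis) and log2 of the mean fold enrichment of the 2 replicates (vertical axis), with all genes in grey (number of regions, log scale) and the 13 regions of KCNQ1, IGF2R and MEST as points. The KCNQ1 region with 40 CpG and the IGF2R region with 38 CpG lie at the CpG-rich edge, and the MEST region lies among the bulk at 6 CpG.

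IGF2, KCNQ1 and CDKN1C lie in this order on chromosome 2, and the CTCF sites between them were unevenly spread. Between IGF2 and KCNQ1, over 178.9 kb, 9 CTCF regions were found in both replicates, each with a motif. The closest to IGF2, 5.26 kb upstream of its TSS in the gene TH, had fold enrichments of 21.2 and 20.2, and the next, 23.4 kb upstream, had 38.5 and 46.9. The closest to KCNQ1, 9.56 kb before its TSS, had 34.8 and 55.2, the highest of the 9 by mean. The other 6 had means between 14.1 and 37.0. The longest stretch of this interval without a CTCF region, from 23.4 to 84.7 kb from the IGF2 TSS, was 60.1 kb, longer than 69.3% of all gaps between neighbouring CTCF regions. Reading from IGF2, the motif strands of the 9 were forward, reverse, reverse, reverse, forward, forward, forward, reverse and forward. This interval also held 8 gene starts, with 8 H3K4me3 and 7 H3K27ac regions in all. In both replicates H3K4me3 was at the starts of ASCL2 (34.2 and 13.3), LOC110259220, CD81 and TSSC4. The peak at LOC110259220 was that of CD81 (63.0 and 39.4). H3K27ac was at ASCL2 (3.79 and 5.15), CD81 and TSSC4 in both replicates.

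Between the end of KCNQ1 and CDKN1C, over 30.3 kb, there was no CTCF peak in either replicate, and 2 H3K4me3 and 2 H3K27ac regions were found. From a CTCF region in intron 2 of KCNQ1, 53.6 kb from its TSS (38.9 and 40.8), to the one at the CDKN1C start, no CTCF region was found over 291.5 kb, longer than 97.1% of the 37855 gaps between neighbouring CTCF regions, whose median was 30.8 kb. The CpG-rich KCNQ1 region in intron 11 lies inside this gap. The CDKN1C end of the gap was lined by 4 CTCF regions at 525.9, 529.3, 531.5 and 535.1 kb from the IGF2 TSS. Their mean fold enrichments ran from 18.7 to 30.2, and all had the motif on the reverse strand. The KCNQ1 intron 2 region at the other end had its motif on the reverse strand too. In replicate 1 that region was 2 peaks, with 38.9 and 32.6, and the motif lay in the first. No motif strand is given here for the second, which lay next to the gap.

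**Figure D4:**
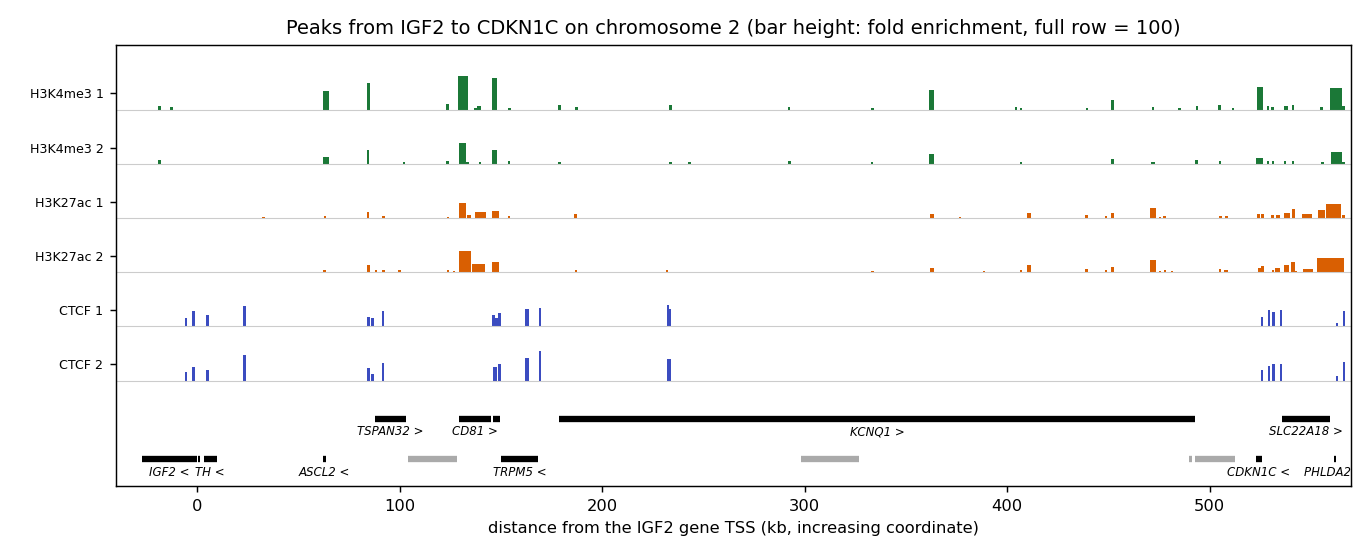
Peaks of the 6 libraries from IGF2 to beyond CDKN1C, by distance from the IGF2 gene TSS in kb (horizontal axis), with bar height giving fold enrichment (full row 100) and black or grey bars giving genes on the forward (upper) and reverse (lower) strand. Between IGF2 and KCNQ1 lie 9 CTCF regions with a gap of 60.1 kb among them. The gap of 291.5 kb from within KCNQ1 to the CDKN1C start holds the tall H3K4me3 peak of intron 11.

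Within 100 kb of the 10 genes there were 60 CTCF regions in both replicates, 53 of them with a motif, 23 on the forward and 30 on the reverse strand. Counted by peaks, 58 of 66 (87.9%) and 56 of 65 (86.2%) held a motif, or 87.0% ± 1.22 (SD, n = 2), beside 88.4% and 87.1% of all CTCF peaks. H3K4me3 overlapped 19 of the 60 and H3K27ac 18, against 21.7% and 27.7% of all CTCF regions. The strongest CTCF region near DLK1, 60.5 kb upstream, had fold enrichments of 72.6 and 61.5 and no motif match, and its mean was higher than 98.6% of CTCF regions. Near IGF2R the strongest lay 83.0 kb upstream (47.6 and 61.9), and near NNAT 13002 bp downstream of the TSS (43.7 and 57.4), on the far side of the BLCAP promoter. The strongest near MEST was the one at its inner starts and the strongest near PEG10 and SGCE was the one at their shared start, which was higher than only 27.6% of CTCF regions.

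**Figure D5:**
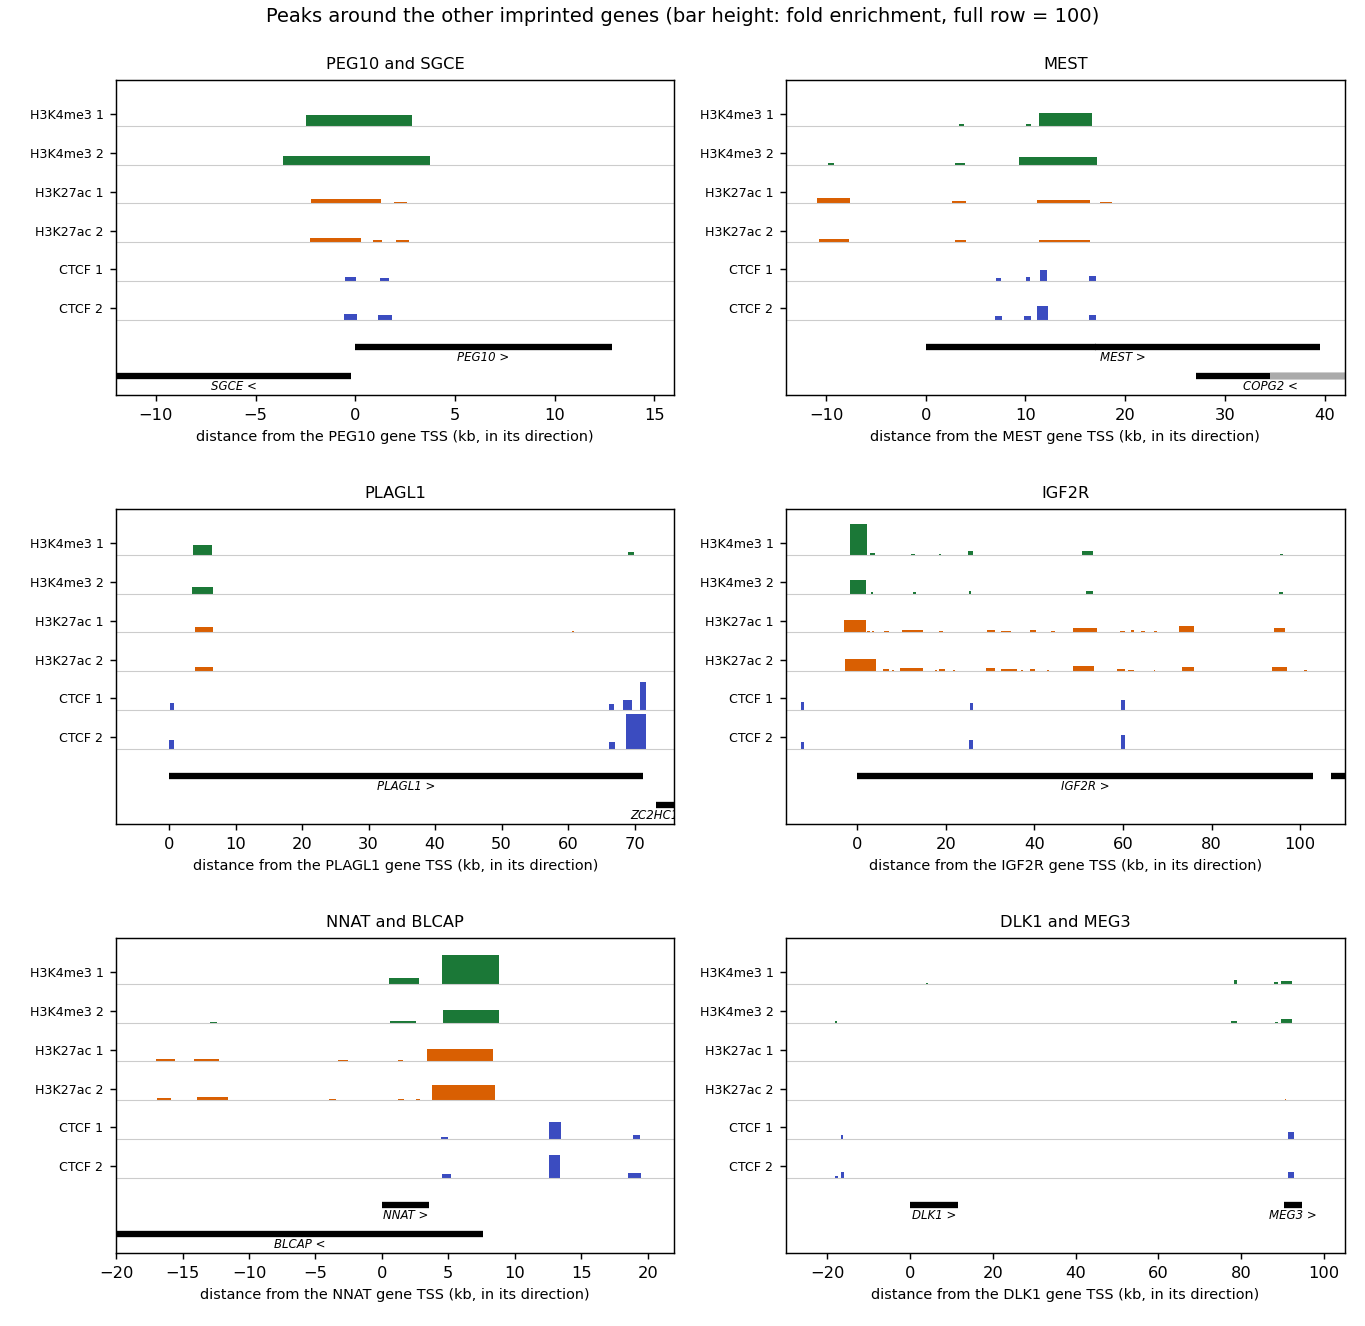
Peaks of the 6 libraries around the other imprinted genes, by distance in kb from the TSS of the first gene named, in its direction of transcription (horizontal axis), with bar height giving fold enrichment (full row 100) and gene bars below. H3K4me3 sits on the shared start of PEG10 and SGCE and on inner starts of MEST and PLAGL1, next to BLCAP the NNAT peak is low, and DLK1 is bare at its start.

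Of the 38 other genes with a TSS within 100 kb of the imprinted genes, 16 had H3K4me3, 13 H3K27ac and 8 CTCF at the TSS in both replicates. Over all genes the shares were 55.4%, 50.1% and 15.2%. The 22 protein-coding ones among them had 11, 9 and 3, against 68.9%, 60.7% and 17.9% of protein-coding genes. PHLDA2, a growth-restraining gene upstream of CDKN1C, had all 3 marks, with H3K4me3 of 40.7 and 22.9 and H3K27ac of 25.3 and 26.5. INS and TH, next to IGF2, had none. A list of 61 symbols of further genes known as imprinted in mammals includes H13 and HM13, which name the same gene. By symbol 51 were found, 11 of them among the 38 neighbours, and of these 51 genes 42 (82.4%) had H3K4me3 at the TSS in each replicate, 33 (64.7%) H3K27ac and 9 (17.6%) CTCF, beside the 68.9%, 60.7% and 17.9% of protein-coding genes just given. PEG3, a zinc-finger gene, had H3K4me3 of 45.6 and 14.3 and H3K27ac of 8.23 and 12.7. GNAS, which encodes a G-protein subunit, had H3K4me3 of 21.0 and 15.0 with CTCF of 18.3 and 26.6 and no H3K27ac at its gene TSS. At another annotated start GNAS had H3K27ac in both replicates. DIRAS3, a small GTPase gene, had all 3 marks at the gene TSS.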

How the data were processed

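Reads were mapped by the authors with bowtie2, Picard took out duplicates, and MACS2 gave the narrow peaks of each library against a control. The methods give a q-value of 0.01, whereas q-values in the deposited lists reach 0.0432 to 0.0499, and the lists were used as deposited. Each deposited peak has a whole-number score, not used here, its fold enrichment as a ratio to the control, and −log10 of its p-value and q-value. The submitters' processing notes name Sscrofa 11.1, and positions were read with its RefSeq annotation (NCBI Release 106). The sequences printed are those of the RefSeq assembly. Input libraries were not analysed here, and neither was H19.

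Libraries were grouped by their labels. A peak counted at a start when it touched the 1 kb on either side. Peaks of both replicates were joined into a region where they overlapped by at least 1 bp, and a region's fold enrichment is the highest in each replicate. Percentiles are shares of all genes or regions with a lower value, with tied values counted at 50%. Promoters are the 250 bases before and 50 from the gene TSS on. The motif was learned by expectation maximisation from 600 CTCF peaks and matched at a p-value per position below 0.0001. Named genes were the 10 imprinted genes, genes within 100 kb or between them and a list of other imprinted genes. The genes, lists and regions were chosen with earlier results of these data known. Computations used python 3.11.15, numpy 2.4.6 and pysam 0.24.0, and overlap counts and the motif search were tested on simulated data. Alternatives took −log10 q-values from 5 up, a distance of 5 kb from a start, 50 kb around the gene, 50% overlap, the summit in the window, each replicate alone and a stricter motif.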

Additional observations from a re-analysis of the deposited data

How the results depend on the processing

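For 20 results, 72 of 76 recomputed counts stayed within 1.5 times the count given, and 3 of 7 recomputed shares within 1 SD between the replicates. Those 3 include the shares of each replicate alone, which could not fall outside, as the SD comes from the same 2 values. Where the summit rather than any part of the peak had to lie within 1 kb, 2 genes, KCNQ1 and IGF2R, kept H3K4me3 at the gene TSS, against 41.5% of all genes. With a distance of 5 kb, 7 genes had H3K27ac at the gene TSS, against 58.2% of all genes, and 4 had CTCF at another annotated start, against 35.7% of the genes with such starts. With a stricter motif, 67.9% of CTCF peaks near the genes held one. No share of all CTCF peaks is given at that threshold, so this fall cannot be set beside all peaks. The other 3 shares that moved are those of all genes with each mark against protein-coding genes. With 1 replicate left out, the counts of genes with each mark at a start did not change, H3K4me3 regions away from starts numbered 15 to 22, 22 being those of replicate 1 alone, and CTCF regions between IGF2 and KCNQ1 9 to 10. H3K4me3 regions in the gene bodies numbered 23 to 30 and H3K27ac regions 38 to 43. No paired analysis was possible because the results come from no test. With 2 replicates per mark and no read counts, small differences in fold enrichment are not resolved.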
